A study of Mus musculus with 20 samples.

Results

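Astrocyte genes were followed in the brain of mice with spinal muscular atrophy (SMA) as a set of 10 genes that are commonly used to mark astrocytes. They are Gfap, S100b, Aqp4, Gja1, Slc1a3, Slc1a2, Glul, Aldh1l1, Aldoc and Sparcl1, and they were chosen by gene symbol from the 45700 genes of the deposited expression table. Each symbol matched 1 entry of the table, and all 10 genes passed the filter of a mean of 1 FPKM (sequenced fragments scaled by exon length and by how many fragments each library had mapped) that 15247 genes passed. No member was listed at 0 in any library.

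The study compared brains of “Taiwanese” SMA mice (Smn-/-; SMN2tg/0) with brains of phenotypically normal heterozygous littermates (Smn-/+; SMN2tg/0), which are called controls here. Both genotypes carried the human SMN2 transgene and were on a congenic FVB background, so the controls were neither wild type nor free of the transgene. The early-symptomatic stage was postnatal day 5 (P5), with 2 replicates per genotype, and the late-symptomatic stage was postnatal day 7 (P7), with 3 replicates per genotype. From each, RNA pooled from all sucrose fractions of a cytoplasmic lysate (total RNA) and RNA pooled from the polysomal fractions alone (polysomal RNA, the RNA that sediments with several ribosomes) was sequenced, which gave 8 groups and 20 libraries. The labels do not say whether a total and a polysomal library with the same number came from the same brain. The table holds no counts, so the depth behind a value is unknown and no counting error could be given.

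Astrocytes are the glial cells that clear glutamate and potassium around synapses, supply neurons with metabolites, line blood vessels with their endfeet and secrete proteins that act on synapses. In rodents most of them arise from radial glia around birth and mature over the first postnatal weeks, with falling levels of radial glia genes and rising levels of transporters and connexins. After injury or in disease they can become reactive, a state in which Gfap and Vim, both intermediate filament genes, are typically raised. SMA is caused by loss of the SMN protein and is known above all for the loss of motor neurons.

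Properties of the libraries that could bear on these genes were examined first. Smn1 (the mouse Smn gene) lay between 8.92 and 9.71 FPKM in the early control total libraries and between 9.55 and 10.09 FPKM in the early SMA total libraries. In the late total libraries it lay between 13.56 and 16.70 FPKM in controls and between 11.94 and 17.49 FPKM in SMA. The gene-level value did not separate the genotypes, and because the targeted allele lacks only part of the gene, this value does not check the labels.

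The sex of the mice was not balanced between the groups. By the Y-linked gene Ddx3y, read as male above 5 FPKM, both early controls were male, the early SMA replicates were 1 male and 1 female, the late controls were 1 male and 2 females, and the late SMA replicates were 2 males and 1 female. Total and polysomal libraries with the same number matched in sex in all 10 cases. Sex was a term only in alternative fits of SMA against control, and those values are given below where they change a call. SMA replicate 1 was the only female of the early stage. There the sex term and leaving out that replicate give the same change and are not separate alternatives. At the late stage SMA replicate 3 was the only female of SMA, so leaving it out also changes the balance of the sexes.

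The level of oligodendrocyte markers varied widely within every group. Mbp, the myelin basic protein gene and the most abundant gene of 8 oligodendrocyte markers, was at 68.08, 172.30 and 183.81 FPKM in the late control total libraries and at 214.99, 187.58 and 109.46 FPKM in the late SMA total libraries. The polysomal libraries with the same numbers had the same order in SMA, at 267.25, 218.21 and 115.35 FPKM, and late control replicate 1 was again the lowest, at 83.60 FPKM. None of the 8 oligodendrocyte markers passed the test between the genotypes in any of the 4 comparisons. Over the 20 libraries, on the log2 scale, the Pearson correlation with the summed oligodendrocyte markers was 0.77 for Gfap, 0.71 for Gja1 and 0.63 for S100b, and it was between -0.15 and 0.56 for the other members. These values describe libraries that share groups and, by their numbers, possibly brains.

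The 10 genes differed widely in level. Sparcl1 (a secreted protein related to SPARC that acts on synapses) was the most abundant, with a mean over the 20 libraries of 412 FPKM, and ranked 210 among the genes tested. Glul (glutamine synthetase, which turns glutamate into glutamine) followed at 179 FPKM, Aldoc (aldolase C, a brain isoform of a glycolytic enzyme) at 169 FPKM, Slc1a2 (GLT-1, the main glutamate transporter of mature astrocytes) at 156 FPKM and Slc1a3 (GLAST, the glutamate transporter already present in radial glia) at 110 FPKM. Gfap (glial fibrillary acidic protein), Gja1 (connexin 43) and Aqp4 (aquaporin 4, the water channel of the endfeet) were close to one another at 60.6, 55.7 and 52.5 FPKM. Aldh1l1 (a folate enzyme widely used as a pan-astrocyte marker) and S100b (a calcium-binding protein that some oligodendrocytes also make) were the lowest, at 24.9 and 24.1 FPKM. FPKM is scaled by length, so these levels can be set side by side. The ranges of Glul, Aldoc and Slc1a2 overlapped widely over the 20 libraries, as did those of Gfap, Gja1 and Aqp4 and those of Aldh1l1 and S100b. The spread over libraries was widest for Slc1a2, with a 3.75-fold difference between the highest and the lowest library, and narrowest for Gja1, with a 1.84-fold difference.

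**Figure D1:**
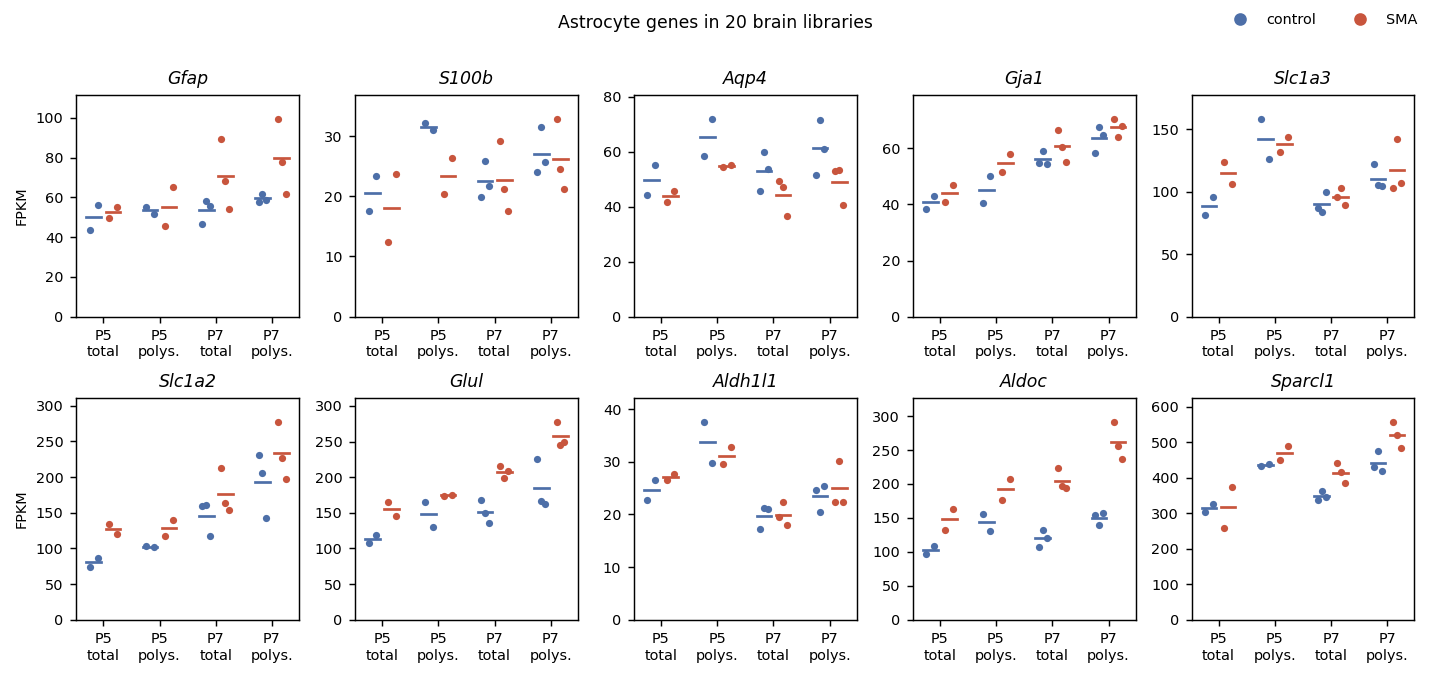
FPKM (vertical axes, from 0) of the 10 astrocyte genes in each of the 20 libraries, by stage and RNA fraction (horizontal axes), with controls in blue and SMA in red. Points are libraries and lines are group means. In both P7 fractions all SMA points of Aldoc, Glul and Sparcl1 lie above all control points, whereas Aldh1l1, S100b and Slc1a3 overlap there.

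The genotypes were compared within each stage and fraction with limma on log2(FPKM + 0.1), and a gene was called at an unadjusted p under 0.05, the threshold of the study. Changes are given as log2 SMA minus control with the standard error (SE). At this threshold 8.25% of all tested genes were called in early total RNA, 12.5% in early polysomal RNA, 9.54% in late total RNA and 10.7% in late polysomal RNA. Of the 10 astrocyte genes 3 were called in early total RNA, 0 in early polysomal RNA, 3 in late total RNA and 3 in late polysomal RNA, and all of the called values were higher in SMA. Of all tested genes 4.36% were called higher in early total, 4.84% in late total and 5.35% in late polysomal RNA. No member passed a Benjamini-Hochberg adjusted p under 0.05 in any of the 4 comparisons with limma, where 0.164%, 0.649%, 0.111% and 0.0918% of all tested genes did. The median change of the 10 genes was 0.13, 0.07, 0.18 and 0.16 in that order, beside medians over all tested genes of 0.01, -0.01, 0.00 and 0.00. In bulk tissue the number of astrocytes, the amount of RNA per astrocyte and RNA of these genes from other cells cannot be told apart.

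Aldoc had the largest change of the 10 genes at P7. In late total RNA it was at 107.20, 131.88 and 120.55 FPKM in controls and at 223.26, 196.43 and 193.96 FPKM in SMA, and in late polysomal RNA at 154.34, 139.85 and 156.77 FPKM in controls and at 291.67, 255.77 and 236.24 FPKM in SMA. Every SMA library lay above every control library of its fraction. The change was 0.77 (SE 0.10, adjusted p = 0.132) in total and 0.79 (SE 0.09, adjusted p = 0.153) in polysomal RNA. Aldoc was called at P7 under each alternative setting tried and without any single library. At P5 it was at 96.99 and 108.92 FPKM in control total RNA and at 132.33 and 163.00 FPKM in SMA total RNA, without overlap, and rose by 0.51 (SE 0.15, adjusted p = 0.551). This early call was lost with the libraries scaled to equal medians (0.48) and without control replicate 1, control replicate 2 or SMA replicate 2 (0.43, 0.60 and 0.36). In early polysomal RNA the groups again did not overlap, at 155.77 and 131.17 FPKM against 176.74 and 207.67 FPKM, but the change of 0.42 (SE 0.15) did not pass the test. It was called in 1 model over all libraries (0.42) and with a correction for transcript length (0.49). With 2 replicates a group, 47.6% of all tested genes did not overlap between the genotypes in early total RNA and 50.5% in early polysomal RNA. In late total and late polysomal RNA these shares were 15% and 16.1%.

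Glul was higher in SMA in 3 of the comparisons. In late total RNA it was at 168.04, 149.19 and 135.49 FPKM in controls and at 215.72, 198.65 and 208.64 FPKM in SMA, with a change of 0.47 (SE 0.09, adjusted p = 0.272). In late polysomal RNA it was at 225.92, 166.45 and 162.67 FPKM in controls and at 277.91, 244.97 and 249.60 FPKM in SMA, with a change of 0.49 (SE 0.15, adjusted p = 0.366). The groups did not overlap in either fraction. The late polysomal call was lost without control replicate 2, control replicate 3 or SMA replicate 1, where the change was 0.42, 0.41 and 0.43. In early total RNA Glul was at 107.14 and 118.81 FPKM in controls and at 165.71 and 145.87 FPKM in SMA, a change of 0.46 (SE 0.11, adjusted p = 0.551) that was no longer called with sex as a term (0.37) or without control replicate 1, control replicate 2 or SMA replicate 1 (0.39, 0.54 and 0.37). In early polysomal RNA the change was 0.25 and was not called, and without control replicate 1 it was 0.42 and called.

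Of the glutamate transporters Slc1a2 and Slc1a3, the former was called in early total RNA. Slc1a2 was at 74.09 and 86.78 FPKM in early control total RNA and at 133.72 and 120.36 FPKM in early SMA total RNA, with no overlap and a change of 0.66 (SE 0.12, adjusted p = 0.551). After a correction for transcript length the same change was 0.38 and still called, and without control replicate 1 it was 0.55 and not called. The longest annotated transcript of Slc1a2, at 11595 nucleotides, is the longest among the 10 genes. In early polysomal RNA the change was 0.32 and not called, and it was 0.05 after the length correction. The same change was 0.45, and called, with sex as a term and without SMA replicate 1. At P7 Slc1a2 was at 159.19, 161.13 and 116.88 FPKM in control total RNA and at 213.44, 163.06 and 154.30 FPKM in SMA total RNA, so that the groups overlapped, and the changes of 0.28 in total and 0.29 in polysomal RNA were not called. Slc1a3 was not called in any of the 4 comparisons. Its largest change was in early total RNA, where 81.65 and 95.70 FPKM in controls lay below 123.82 and 106.16 FPKM in SMA (0.37, 95% confidence interval -0.04 to 0.79; called in 1 model over all libraries), and its changes at P7 were 0.09 in total and 0.07 in polysomal RNA.

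Sparcl1 was called higher in SMA in both fractions at P7. In late total RNA it was at 336.48, 361.51 and 346.61 FPKM in controls and at 442.64, 415.16 and 384.56 FPKM in SMA, with a change of 0.25 (SE 0.07, adjusted p = 0.365). In late polysomal RNA it was at 430.07, 473.85 and 418.64 FPKM in controls and at 557.49, 518.78 and 483.57 FPKM in SMA, with a change of 0.24 (SE 0.08, adjusted p = 0.431). SMA and control libraries did not overlap in either late fraction. The polysomal call was lost in 1 model over all libraries (0.24), with the length correction (0.22) and with sex as a term (0.23), and without control replicate 1, control replicate 3, SMA replicate 1 or SMA replicate 2 (0.22, 0.20, 0.19 and 0.24). In the early libraries the changes were -0.02 in total and 0.11 in polysomal RNA, where both SMA libraries (449.03 and 489.57 FPKM) lay above both controls (433.33 and 438.28 FPKM), and SMA replicate 1, at 259.48 FPKM in total RNA, was the lowest of all 20 libraries. Whether the change at P7 differed from that at P5 is given below by the test of the difference itself.

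Gfap, the gene most used to read astrocyte reactivity, did not pass the test in any comparison of the genotypes. In late total RNA it was at 46.44, 58.18 and 55.58 FPKM in controls and at 89.29, 68.07 and 54.37 FPKM in SMA, so SMA replicates 1 and 2 lay above every control and replicate 3 did not. In late polysomal RNA it was at 57.73, 61.74 and 58.89 FPKM in controls and at 99.68, 77.97 and 61.86 FPKM in SMA, where the groups narrowly did not overlap. The changes were 0.38 (SE 0.20, 95% confidence interval -0.14 to 0.89) and 0.40 (SE 0.18, 95% confidence interval -0.05 to 0.85). Without SMA replicate 3 they were 0.55 and 0.57 and were called. That replicate was the only female of late SMA, whereas the late controls were 1 male and 2 females. With sex as a term and all libraries kept, neither late change of Gfap was called. The order of Gfap over the 3 late SMA replicates was that of Mbp in both fractions, and the part of the oligodendrocyte content in this spread was not tested. At P5 Gfap was between 43.59 and 56.26 FPKM in control total RNA and between 49.55 and 55.38 FPKM in SMA total RNA, with changes of 0.08 in total and 0.03 in polysomal RNA.

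S100b, Aqp4, Gja1 and Aldh1l1 were not called either. S100b spread from 17.60 to 29.25 FPKM in late SMA total RNA and from 12.39 to 23.75 FPKM in early SMA total RNA, and its changes lay between -0.44 and -0.01, the lowest in early polysomal RNA, where it was called without SMA replicate 2 (-0.63). Aqp4 had a change below 0 in all 4 comparisons, at -0.17, -0.24, -0.26 and -0.32, none of which was called, although 2 were without control replicate 1 (-0.39 in early and -0.44 in late polysomal RNA). In late total RNA Aqp4 was at 45.62, 59.96 and 53.79 FPKM in controls and at 49.34, 47.20 and 36.59 FPKM in SMA, which overlapped. Gja1 had changes between 0.09 and 0.28 and Aldh1l1 between -0.11 and 0.15. That of Gja1 was called in early polysomal RNA in 1 model over all libraries (0.28) and without control replicate 2 (0.43), and in late total RNA without SMA replicate 3 (0.18). For Aldh1l1 in late total RNA the 95% confidence interval of the change of 0.01 ran from -0.30 to 0.32. An antisense gene, Gm15756, overlaps 11% of the annotated exon bases of Aldh1l1. The paper gives default settings for the programs and names no strand option, so reads of both may be mixed in this value.

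**Figure D2:**
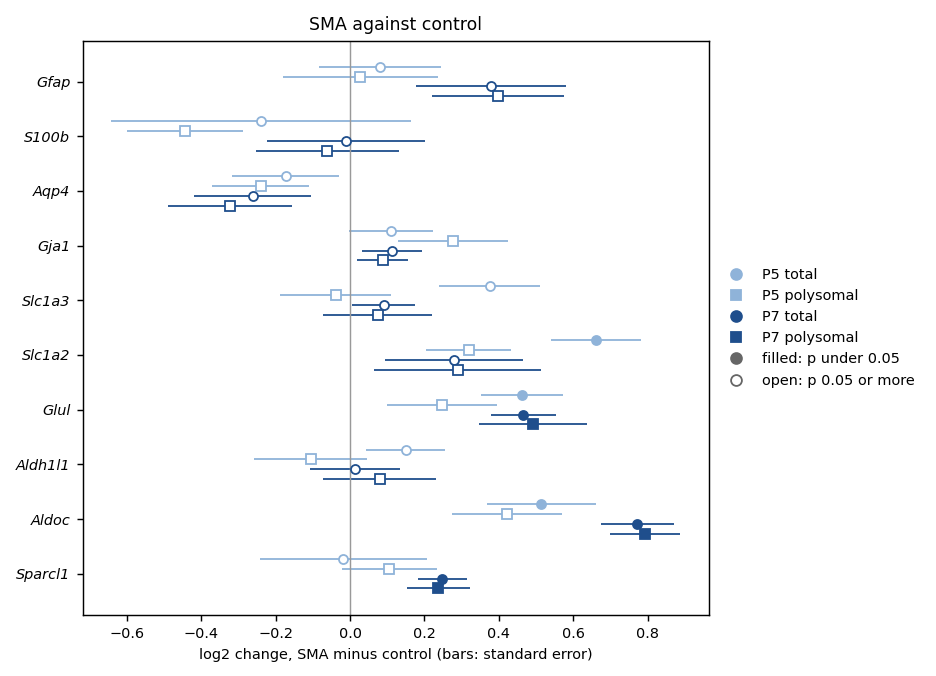
Log2 change, SMA minus control (horizontal axis), of each astrocyte gene (vertical axis) in the 4 combinations of stage and fraction. Points are limma estimates, bars are the standard error, and filled symbols have an unadjusted p under 0.05. Aldoc and Glul are filled in 3 of 4 comparisons, Sparcl1 in both at P7, and Aqp4 lies below 0 in all 4.

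The promoters of the 3 genes called in early total RNA are shown because these genes rose together there. The windows run from 250 bases before to 50 bases after an annotated RefSeq start and are given 5′ to 3′ on the plus strand of GRCm38.p6, at chr2:102706188-102706487 for Slc1a2, chr11:78322823-78323122 for Aldoc and chr1:153899679-153899978 for Glul. Capitals mark the letters TTGGC or, on the opposite strand, GCCAA, which form a half-site of the nuclear factor I family, factors known for their part in astrocyte differentiation.
Slc1a2: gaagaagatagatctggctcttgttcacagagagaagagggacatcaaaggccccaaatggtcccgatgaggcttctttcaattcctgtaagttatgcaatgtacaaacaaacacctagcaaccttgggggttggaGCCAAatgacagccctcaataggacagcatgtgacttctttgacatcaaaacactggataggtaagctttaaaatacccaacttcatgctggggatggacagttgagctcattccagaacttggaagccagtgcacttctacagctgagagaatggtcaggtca
Aldoc: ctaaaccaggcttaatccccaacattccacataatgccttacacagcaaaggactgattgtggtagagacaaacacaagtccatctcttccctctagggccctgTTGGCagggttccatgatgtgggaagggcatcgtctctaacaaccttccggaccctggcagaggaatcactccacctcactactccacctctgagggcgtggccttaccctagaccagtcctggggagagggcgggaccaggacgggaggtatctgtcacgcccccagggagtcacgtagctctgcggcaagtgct
Glul: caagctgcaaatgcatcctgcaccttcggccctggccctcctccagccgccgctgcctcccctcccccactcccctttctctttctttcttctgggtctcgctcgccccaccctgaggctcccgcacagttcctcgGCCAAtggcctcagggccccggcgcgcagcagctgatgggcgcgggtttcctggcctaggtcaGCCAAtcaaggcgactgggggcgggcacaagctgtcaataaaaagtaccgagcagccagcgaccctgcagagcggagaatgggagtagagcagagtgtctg

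The Slc1a2 window lies inside the annotated span of the gene, at one of its inner starts. Slc1a2 and Aldoc held 1 match each and Glul held 2, both of which continue into the letters of a CCAAT box (GCCAAT). Of all 32851 promoter windows 46.7% held at least 1 match on either strand, and 4 of the 8 members that had a window did (Slc1a2, S100b, Aldoc and Glul). The letters ACANNNTGT, the core of a glucocorticoid response element, were in 6.85% of all windows and in those of Slc1a2 and Glul. ACGTG, the core of a hypoxia response element, was in 19.6% of all windows and in those of Slc1a3 and Aldoc, and TTCCNGGAA, a STAT site, was in 1.15% of all windows and in those of Gfap and, in a second window, Aldoc. A match describes the letters alone. Aqp4 and Sparcl1 had no window there.

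By Gencode M21 on GRCm38, Aldoc spans chr11:78322968-78327781, Glul chr1:153899944-153909723, Slc1a2 chr2:102658659-102790784 and Sparcl1 chr5:104079111-104113733. Gfap, at chr11:102887336-102900912, Slc1a3, at chr15:8634124-8710764, and Sparcl1 are on the minus strand. S100b, at chr10:76253853-76261159, Gja1, at chr10:56377330-56402513, and Aldh1l1, at chr6:90486427-90600203, are on the plus strand, as are Aldoc, Glul and Slc1a2. The values were made with an earlier Gencode release, in which the span of a gene can differ. The deposited locus of Gja1, for one, ends at position 56390419. Those of Gfap (chr11:102838472-103101658), S100b (chr10:76253852-76345291), Glul (chr1:153849541-153909723) and Sparcl1 (chr5:104079110-104119687) reach beyond the annotated spans. Which exons entered each value was not examined.

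The comparison of the stages asked how these genes changed as the brain matured between P5 and P7 in each genotype. These comparisons share libraries with those of the genotypes. Any difference in the collection or sequencing of the stages cannot be told apart from age. Sex differed as well, as both P5 controls were male and the P7 controls were 1 male and 2 females. The SMA replicates were 1 male and 1 female at P5 and 2 males and 1 female at P7. Sex was not a term in any comparison of the stages, and its part was not tested. Of all tested genes 40.3% were called in control total RNA, 42% in control polysomal RNA, 32.7% in SMA total RNA and 41% in SMA polysomal RNA. Of the 10 members 3, 3, 5 and 4 were called in that order, so their share was near that of all genes. After adjustment 2 members passed in control total and 2 in SMA polysomal RNA, where 21.2% and 22.7% of all tested genes did. Their median log2 changes, P7 minus P5, were 0.14, 0.04, 0.41 and 0.23.

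Slc1a2 and Gja1 rose from P5 to P7 in all 4 comparisons. For Slc1a2 the control total libraries went from 74.09 and 86.78 FPKM at P5 to 159.19, 161.13 and 116.88 FPKM at P7, with no overlap, and the change was 0.85 (SE 0.18, adjusted p = 0.0443 with limma). It rose by 0.88 in control polysomal, 0.46 in SMA total and 0.85 in SMA polysomal RNA (adjusted p = 0.0621, 0.151 and 0.0419). Gja1, which forms the gap junctions that couple astrocytes, went from 38.51 and 42.93 FPKM to 54.72, 59.20 and 54.53 FPKM in control total RNA, also without overlap. Its change of 0.46 (SE 0.07, adjusted p = 0.0238) there compares with 0.50, 0.47 and 0.31 in control polysomal, SMA total and SMA polysomal RNA (adjusted p = 0.0581, 0.0806 and 0.0535). Single libraries decided some of these calls. The call of Slc1a2 was lost in control total RNA without P5 replicate 1 (0.73), in control polysomal RNA without P5 replicate 1 or 2 (0.89 and 0.87) and in SMA total RNA without P5 replicate 1, P5 replicate 2 or P7 replicate 2 (0.54, 0.39 and 0.52) or without the filter on low values (0.46). That of Gja1 was lost without P5 replicate 1 in SMA total (0.37) and SMA polysomal RNA (0.22).

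Glul rose with age by 0.41 in control total, 0.42 in SMA total and 0.56 in SMA polysomal RNA (adjusted p = 0.0685, 0.0658 and 0.0214). In control polysomal RNA its change was 0.31 and not called, although it was in 1 model over all libraries. Aldoc rose in the SMA libraries, by 0.47 in total RNA, from 132.33 and 163.00 FPKM to 223.26, 196.43 and 193.96 FPKM, and by 0.44 in polysomal RNA (adjusted p = 0.0955 and 0.075). In controls its changes of 0.22 and 0.07 were not called, although that in total RNA was without P7 replicate 1 (0.29). Aldh1l1 was called lower at P7, at -0.52 in control polysomal RNA (adjusted p = 0.0762), from 37.61 and 29.82 FPKM to 24.63, 20.55 and 25.31 FPKM, and at -0.45 in SMA total RNA (adjusted p = 0.082). Its values in the other comparisons were -0.31 and -0.33 and were not called, although the latter, in SMA polysomal RNA, was in 1 model (-0.33) and without P7 replicate 2 (-0.47). Slc1a3 was not called, with changes from -0.36 to 0.03, nor were Gfap (0.10 to 0.52), S100b (-0.23 to 0.37), Aqp4 (-0.18 to 0.10) and Sparcl1 (0.01 to 0.41). Some of these calls depended on the setting. In control polysomal RNA Slc1a3 was called lower with equal medians (-0.38), in 1 model (-0.36), with the length correction (-0.39) and without P5 replicate 2 or P7 replicate 1 (-0.53 and -0.43). It was also called lower in SMA total RNA without P5 replicate 2 (-0.37) and in SMA polysomal RNA without P7 replicate 2 (-0.39). Gfap was called higher in control polysomal RNA without the filter on low values (0.15), with the length correction (0.24) and without P5 replicate 1 (0.20), in SMA total RNA without P7 replicate 3 (0.57) and in SMA polysomal RNA in 1 model (0.52). Sparcl1 was called higher in control total RNA with the length correction (0.20) and in SMA total RNA in 1 model (0.41) and without P5 replicate 2 (0.67), and S100b lower in control polysomal RNA without P7 replicate 2 (-0.34). Without P5 replicate 1 the calls of Glul in control total (0.34), Aldh1l1 in control polysomal (-0.35) and Aldoc in SMA total and SMA polysomal RNA (0.32 and 0.33) were lost. Those of Glul in control total, Aldh1l1 in control polysomal and Aldoc in SMA polysomal RNA were also lost without P7 replicate 2 (0.42, -0.42 and 0.45), and that of Aldh1l1 in SMA total RNA without P5 replicate 2 (-0.42).

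The test of the difference between the genotypes in their stage change called 0 of the 10 genes in total RNA and 0 in polysomal RNA with limma, unadjusted or adjusted, beside 10.1% and 13.7% of all tested genes. The same test asks whether the effect of the genotype differed between the stages. For Aldoc the stage change in SMA exceeded that in control by 0.26 (adjusted p = 0.549) in total and 0.37 (adjusted p = 0.388) in polysomal RNA. For Sparcl1 these values were 0.27 and 0.13, and for Gfap they were 0.30 and 0.37. Slc1a2 had -0.38 (SE 0.26, adjusted p = 0.551) in total RNA. The value of Aldoc in polysomal RNA was called with equal medians (0.41) and without P5 control replicate 2, P5 SMA replicate 2 or P7 SMA replicate 3 (0.49, 0.49 and 0.44). That of Sparcl1 in total RNA was called without P5 SMA replicate 2 (0.53), and those of Gja1 and Glul in polysomal RNA without P5 control replicate 2 (-0.35) and P7 control replicate 1 (0.40). The calls of Sparcl1 at P7 and of Slc1a2 at P5 are therefore not shown to differ between the stages with all libraries in the fit.

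**Figure D3:**
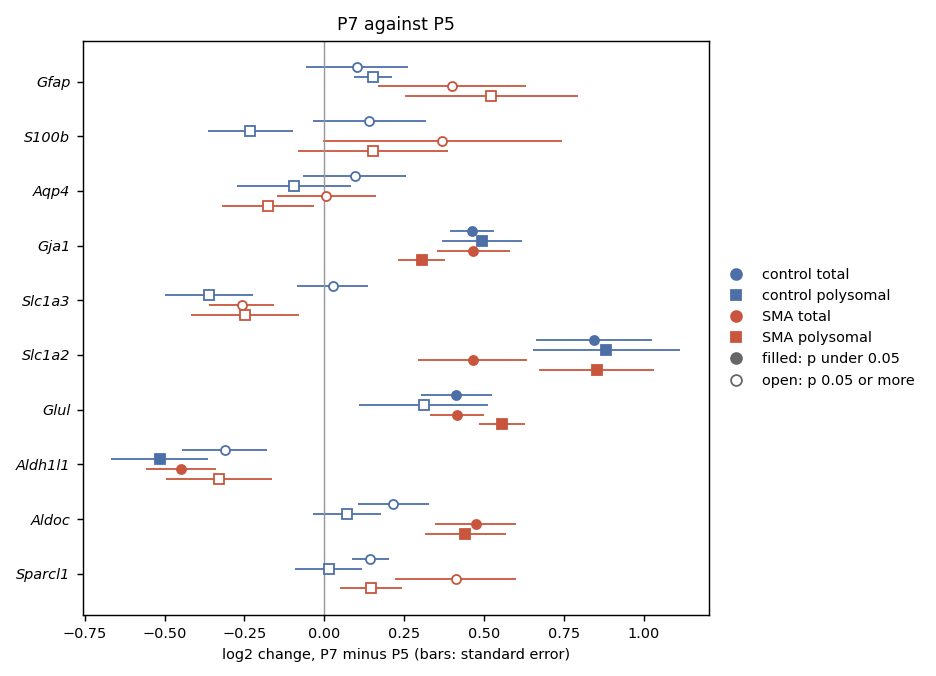
Log2 change, P7 minus P5 (horizontal axis), of each astrocyte gene (vertical axis) in controls (blue) and SMA (red), in total (circles) and polysomal RNA (squares). Bars are the standard error and filled symbols have an unadjusted p under 0.05. Slc1a2 and Gja1 are filled in all 4 comparisons, and Aldh1l1 lies below 0 in all 4.

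The share of each RNA on polysomes was read from the difference between polysomal and total RNA. The fractions were normalised as separate libraries, so the difference is relative to the other genes of each library. All 10 astrocyte genes had a higher mean log2(FPKM + 0.1) in polysomal than in total RNA in each of the 4 groups of genotype and stage. The median difference was 0.42 in early controls, 0.27 in late controls, 0.29 in early SMA and 0.29 in late SMA, beside 0.02, 0.05, 0.00 and 0.05 over all tested genes. Of the 10 genes 5, 4, 1 and 3 were called, all higher in polysomal RNA, where 25.9%, 25.3%, 12.6% and 29.6% of all tested genes were called. With the replicate number as a block the calls changed in each of the 4 groups, as given at the end. The labels do not say that these numbers pair the libraries. After adjustment 1 member passed in late controls and 1 in late SMA, where 7.12% and 11% of all tested genes did. Sparcl1 was called in 3 groups, with differences of 0.47 in early controls, 0.34 in late controls (adjusted p = 0.0472) and 0.33 in late SMA. In early SMA its difference of 0.59 (SE 0.24) was not called, and it was called in 1 model (0.59) and without total replicate 2 (0.85). Aldoc was called in the same 3 groups, at 0.48, 0.33 and 0.35. Slc1a3 was called in both control groups, at 0.68 and 0.29, Slc1a2 and S100b in early controls, at 0.35 and 0.64, Gja1 in late controls, at 0.18, Glul in late SMA, at 0.31 (adjusted p = 0.045), and Aqp4 in early SMA, at 0.33. Gfap had the lowest differences in early controls and in late controls, at 0.11 and 0.16. Each of the 5 calls in early controls was lost without at least 1 of the 4 libraries, with differences then between 0.24 and 0.79. Of the calls in late controls, those of Slc1a3 without total replicate 1, total replicate 2 or polysomal replicate 1 (0.27, 0.24 and 0.22) and of Gja1 without total replicate 1 or 3 or polysomal replicate 2 or 3 (0.13 to 0.16) were lost, and Gja1 was not called either without the filter on low values (0.18), with equal medians (0.19), in 1 model (0.18) or with the length correction (0.15). In 1 model those of Slc1a2 in early controls (0.35) and Aqp4 in early SMA (0.33) were lost, while Aldh1l1 (0.45) and Glul (0.38) in early controls, Glul (0.28) in late controls, Gja1 (0.32), Aldoc (0.38) and Sparcl1 in early SMA, and Aldh1l1 (0.31) and Slc1a2 (0.40) in late SMA were gained. With equal medians or the length correction Aldh1l1 in early controls (0.50 and 0.44) and Slc1a3 in early SMA (0.33 and 0.30) were gained, and with equal medians Glul in early controls (0.43). Without single libraries Aldh1l1 and Glul were gained in early controls (0.62 and 0.56), Aldh1l1 and Slc1a2 in late controls (0.34 and 0.60), Slc1a3, Glul and S100b in early SMA (0.37, 0.26 and 0.90), and Gja1 and Slc1a2 in late SMA (0.22, and 0.54 or 0.52). That of Aqp4 in early SMA was also lost without polysomal replicate 1 or 2 (0.33 and 0.32), and that of Aldoc in late SMA without total replicate 2 or 3 (0.32 and 0.31).

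The change in this difference between the genotypes, the change in translation efficiency, was called for 0 of the 10 genes at P5 and 0 at P7, where 2.32% and 2.07% of all tested genes were called. At P5 the values ran from -0.41 for Slc1a3 (95% confidence interval -0.96 to 0.14) to 0.17 for Gja1. Without control polysomal replicate 2 the value of Slc1a3 was -0.58 and called. At P7 they lay between -0.06 and 0.07. For Aldoc at P7 the change was 0.02, with a 95% confidence interval from -0.30 to 0.34.

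**Figure D4:**
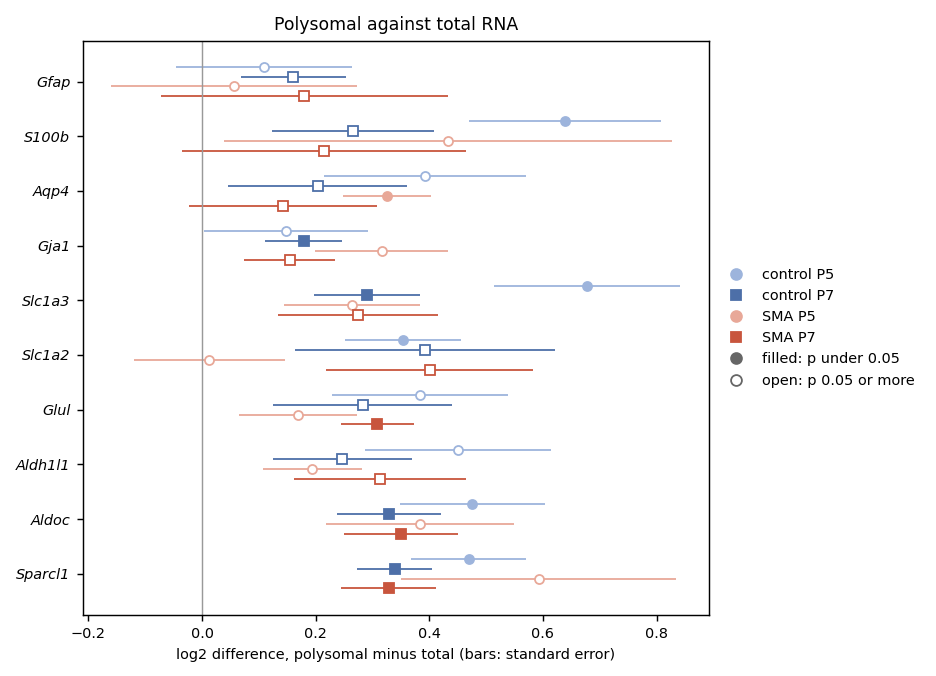
Log2 difference, polysomal minus total RNA (horizontal axis), of each astrocyte gene (vertical axis) in controls (blue) and SMA (red) at P5 (circles, light) and P7 (squares, dark). Bars are the standard error and filled symbols have an unadjusted p under 0.05. All 40 points lie above 0.

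Other genes of astrocytes were read from lists, and their counts are given as called higher and called lower of those tested. Between the genotypes, 8.25% (early total), 12.5% (early polysomal), 9.54% (late total) and 10.7% (late polysomal) of all tested genes were called in either direction. Genotype counts of all lists stand beside these shares. Of 30 other pan-astrocyte genes, 7 were higher and 3 lower in SMA in early total RNA, 3 and 1 in early polysomal, 7 and 1 in late total and 9 and 1 in late polysomal RNA. Their medians of -0.06, -0.02, 0.05 and 0.03 were near 0. Gjb6 (connexin 30, the other main connexin of astrocytes) was higher in SMA in all 4 comparisons. Its mean was 10.8 ± 0.665 FPKM in controls and 22.5 ± 2.09 FPKM in SMA (SD, 2 libraries each) in early total RNA, a change of 1.05 (adjusted p = 0.48). In late polysomal RNA it was 16.9 ± 3.91 FPKM in controls and 40.8 ± 2.96 FPKM in SMA (SD, 3 libraries each), a change of 1.29 (adjusted p = 0.161). Its changes in early polysomal and late total RNA were 0.53 and 0.90.

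Fgfr3 (a growth factor receptor of astrocytes) rose by 0.53 in late total RNA, from 20.2 ± 0.392 to 29.2 ± 1.47 FPKM (SD, 3 libraries each, adjusted p = 0.0535). Htra1 (a secreted protease) rose by 0.75 in early and 0.66 in late polysomal RNA, and Cbs (cystathionine beta-synthase) by 0.71 in early total RNA. Lower in SMA were Slc7a10 (an amino acid transporter), at -0.89, and Gpr37l1 (an astrocytic receptor), at -0.46, both in early total RNA, Id3 (a transcriptional regulator), at -0.56 in early polysomal RNA, and Ednrb (an endothelin receptor), at -0.20 and -0.30 in late total and polysomal RNA. From P5 to P7 the list had 13 genes higher and 4 lower in control total, 10 and 5 in control polysomal, 13 and 2 in SMA total and 12 and 3 in SMA polysomal RNA. Stage counts of this and the other lists stand beside 40.3%, 42%, 32.7% and 41% of all tested genes called in either direction. Among these, Atp1b2 (a sodium pump subunit) rose by 1.63 in control polysomal and 0.63 in SMA total RNA, and Slc4a4 (a bicarbonate transporter) by 0.89 in control polysomal RNA. Mfge8 (a secreted phagocytosis factor) was lower at P7 in all 4 comparisons, at -0.44, -0.59, -0.36 and -0.28.

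Genes that handle glutamate and glutamine, 12 in number, had 1 higher and 1 lower in SMA in early total, 0 and 1 in early polysomal, and 2 and 1 in each late fraction. The shares of all tested genes were 8.25%, 12.5%, 9.54% and 10.7% in early total, early polysomal, late total and late polysomal RNA. The gene that was lower in all 4 was Slc38a5 (a glutamine transporter that is also made by brain endothelium), with changes of -1.94, -2.21, -1.67 and -2.02, in late total RNA from 8.30 ± 1.34 FPKM in controls to 2.60 ± 0.858 FPKM in SMA (SD, 3 libraries each, adjusted p = 0.216). Glud1 (glutamate dehydrogenase) rose by 0.27 in late total and Slc6a11 (the astrocytic GABA transporter GAT-3) by 0.15 in late polysomal RNA. From P5 to P7 this list had 8 higher and 2 lower, 6 and 2, 5 and 2, and 6 and 3, with Glud1 lower in all 4, from -0.57 to -0.45.

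Of 10 tested genes of endfoot anchoring and potassium buffering, Hepacam (the adhesion molecule GlialCAM) was higher in SMA in early total, late total and late polysomal RNA, by 0.53, 0.44 and 0.55. Dmd (dystrophin) was lower in both late fractions, at -0.33 and -0.28, and no other gene of the list was called between the genotypes. Kcnj10 (the potassium channel Kir4.1) rose between P5 and P7 by 0.91 in SMA total and 0.95 in SMA polysomal RNA. Its changes in controls are not given here, so no difference between the genotypes is read from these values. Among 4 tested connexins Gjb6 was the one called higher in SMA and Gja4, a connexin of vessel walls, the one called lower, in early and late total RNA, at -0.56 and -0.40. Gjb2 (connexin 26) rose with age by 0.77 in control polysomal, 0.78 in SMA total and 1.01 in SMA polysomal RNA.

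Of 10 secreted regulators of synapses, 0 were called at P5. Chrdl1 (a secreted BMP antagonist) was lower in SMA in both late fractions, at -0.49 and -0.74, Ncan (neurocan) was lower, at -0.22, in late total RNA, and Sparc and Bcan (brevican) were higher by 0.39 and 0.14 in late polysomal RNA. Of 16 tested factors of astrocyte differentiation, 2 were higher and 0 lower in early total, 1 and 4 in early polysomal, 1 and 1 in late total and 0 and 1 in late polysomal RNA. Apart from early polysomal RNA, these counts were near the shares of all tested genes (8.25%, 12.5%, 9.54% and 10.7%). The 2 higher in early total RNA were Stat3, by 0.53, and Lifr (the LIF receptor), by 0.40. Il6st (gp130, the shared receptor subunit of that pathway) was lower, at -0.60, in early polysomal RNA. Zbtb20 was higher by 0.58 in early polysomal and lower, at -0.24, in late total RNA, where Bmpr1a was higher by 0.22, and Hes1 was lower, at -0.38, in late polysomal RNA. With age Nfix (a nuclear factor I gene) rose by 0.23 in control total and 1.16 in control polysomal RNA, and Stat3 fell in all 4 comparisons, at -0.48, -0.41, -0.91 and -0.50.

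Of 12 genes of radial glia and immature astrocytes 0 were called higher and 1 lower in SMA in each comparison, a share no more than about that of all tested genes (8.25%, 12.5%, 9.54% and 10.7%), and their median changes were -0.26, -0.21, -0.20 and -0.17. Fabp7 (a fatty acid binding protein of radial glia and young astrocytes), which made up 78.69% of the summed level of the list, went from 1411 ± 7.65 FPKM in controls to 838 ± 116 FPKM in SMA in early total RNA (SD, 2 libraries each) and from 1011 ± 152 to 679 ± 47.2 FPKM in late total RNA (SD, 3 libraries each). The changes were -0.76 and -0.57, with -0.66 in late polysomal RNA. In early polysomal RNA Top2a, a proliferation gene, was the one called, at -0.90, and Fabp7 was not called. The summed level of the list was nevertheless 2570 ± 393 FPKM in controls and 1578 ± 59.9 FPKM in SMA there (SD, 2 libraries each). From P5 to P7 the list had 1 higher and 4 lower in control total, 1 and 5 in control polysomal, 1 and 4 in SMA total and 2 and 3 in SMA polysomal RNA. Vim (vimentin), which both this list and that of reactive astrocytes hold, fell with age in all 4, at -1.27, -1.10, -1.06 and -1.10, and Ptprz1 (a receptor phosphatase) rose by 0.54, 0.69, 0.41 and 0.37.

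Reactivity was read from lists of pan-reactive, A1 and A2 genes. Of 12 pan-reactive genes 7 passed the filter, and Lcn2, Steap4, Cxcl10, Osmr and Aspg did not. Serpina3n (a serine protease inhibitor raised in reactive astrocytes) was higher in SMA at P7, going from 10.5 ± 0.402 to 14.2 ± 1.36 FPKM in total RNA (SD, 3 libraries each), a change of 0.43, and changing by 0.45 in polysomal RNA. S1pr3 (a sphingosine phosphate receptor) was lower at P7, at -0.47 and -0.39, and Cp (ceruloplasmin) was higher by 0.67 in early polysomal RNA. Vim was not called between the genotypes, at 46.6 ± 14.3 FPKM in late control total and 45.5 ± 10.3 FPKM in late SMA total RNA (SD, 3 libraries each). Serpina3n also rose with age in all 4 comparisons, by 0.59, 0.53, 0.93 and 0.84, and Cd44 rose by 0.53 and 0.61 in control total and polysomal RNA.

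Of 8 tested A1 genes Fkbp5 (a co-chaperone induced by glucocorticoids) was higher in SMA in all 4 comparisons, by 0.50, 0.67, 0.53 and 0.49. Serping1 (a complement inhibitor) was higher by 0.36 in late total RNA. Srgn (serglycin) was lower in early total, early polysomal and late polysomal RNA, at -0.58, -0.63 and -0.44, and H2-T23 was lower, at -0.96, in late total RNA. H2-T23 belongs to a multigene family whose members share sequence, so its level is uncertain. Of 6 tested A2 genes 0 were higher in any comparison, and S100a10 was lower in early total, early polysomal and late polysomal RNA, at -0.49, -0.42 and -0.23, with Tm4sf1 lower, at -0.49, in early total RNA. From P5 to P7 the A2 genes had 0 called higher and 3, 3, 2 and 4 called lower, B3gnt5 among them in all 4. Over the 3 lists, the genes called higher in late total RNA were Serpina3n, Fkbp5 and Serping1, and those called lower were S1pr3 and H2-T23. Of all tested genes 9.54% were called there in either direction and 4.84% higher.

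**Figure D5:**
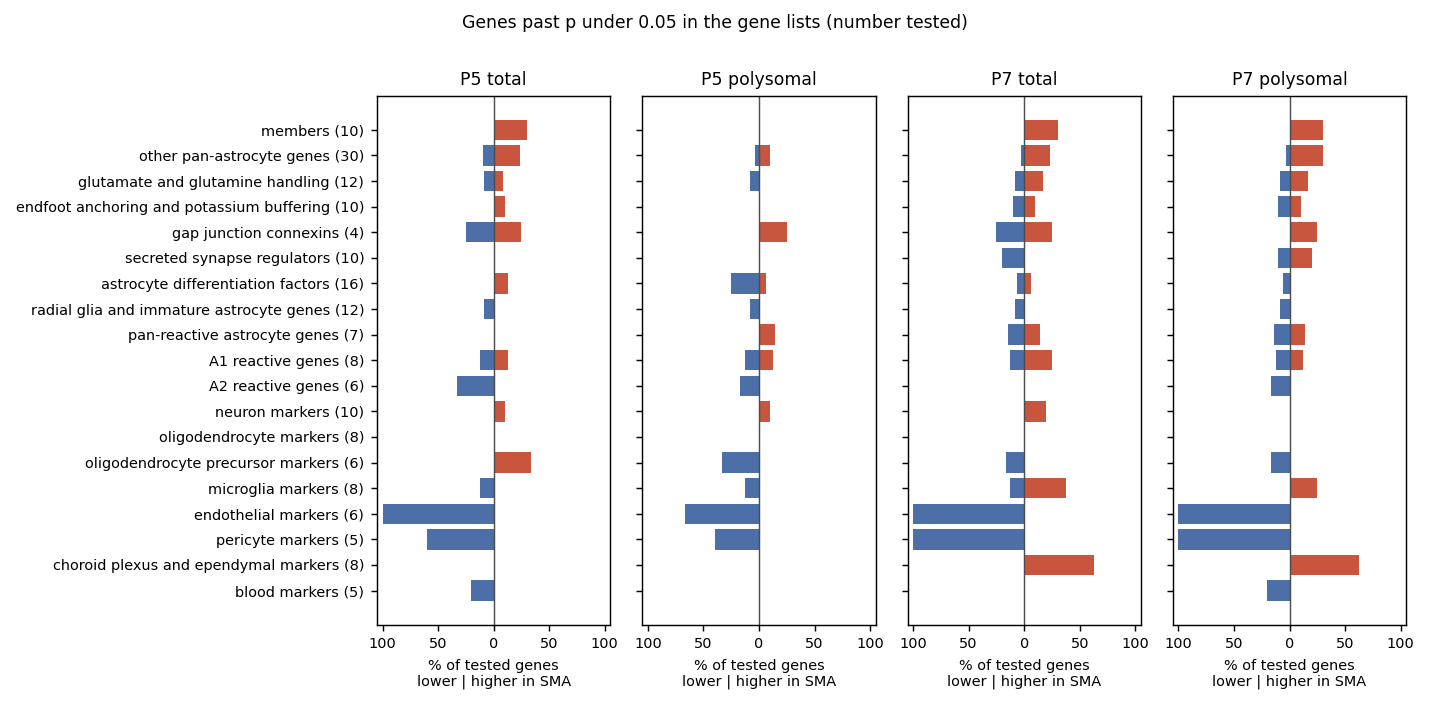
Share of the tested genes of each list (horizontal axes, percent) called higher (red, right) or lower (blue, left) in SMA at an unadjusted p under 0.05, for the 2 stages and 2 fractions. The number of genes tested is in parentheses, and some genes are in 2 lists. Endothelial and pericyte markers reach 100% lower in both P7 fractions, and oligodendrocyte markers have none called.

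Markers of the other cell types in the brain moved beside these genes, and their part in the results was not tested. Endothelial markers were lower in SMA in 6 of 6 genes in early total, 4 of 6 in early polysomal and 6 of 6 in both late fractions, with medians of -0.71, -0.64, -0.70 and -0.80. Their summed level was 51.2 ± 7.16 FPKM in late control total and 27.1 ± 2.44 FPKM in late SMA total RNA (SD, 3 libraries each), led by Cldn5 (a tight junction protein of the blood-brain barrier) with changes of -1.36, -1.62, -1.03 and -1.01. Tek (the angiopoietin receptor) fell by 1.65 in late total RNA (adjusted p = 0.0404). Pericyte markers were lower in 3, 2, 5 and 5 of 5 genes, led by Rgs5 with -0.88, -1.01, -1.23 and -1.39 (adjusted p = 0.0258 in late total RNA), and Abcc9 had -0.82 and -0.80 at P7. These are cells that astrocyte endfeet touch, and Slc38a5, Gja4 and S1pr3 of the lists above are also made by vessel cells.

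Choroid plexus and ependymal markers were higher in SMA in 5 of 8 genes in both late fractions and in 0 of 8 at P5. Ttr (transthyretin), which made up 94.73% of their sum, went from 384 ± 17.3 to 709 ± 86.9 FPKM in late total RNA (SD, 3 libraries each), a change of 0.88, and Clic6 changed by 0.90. Microglia markers had 3 higher and 1 lower of 8 in late total and 2 and 0 in late polysomal RNA, with C1qa at 0.62 and 0.47 and C1qb at 0.71 and 0.73 (both subunits of complement C1q), while P2ry12 (a receptor of resting microglia) was at -0.56 in early total, -0.43 in early polysomal and -0.41 in late total RNA. Neuron markers had 1, 1, 2 and 0 of 10 called higher and 0 lower, with Stmn2 the most abundant, but Tubb3 was listed at 0 in both early control polysomal libraries, so that its call in early polysomal RNA stands for no fold change. Oligodendrocyte precursor markers, with Olig1 the most abundant, had 2 higher in early total and 2, 1 and 1 lower in the other comparisons, of 6. Blood markers, led by Hba-a1, had 1 of 5 lower in early total and in late polysomal RNA and 0 called in the others. No list had a gene at 0 in every library.

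Genes with a pattern most like that of each member were taken as the 3 protein-coding genes with the highest Pearson correlation over the 20 libraries, among 13091 genes. These are descriptions over libraries that share groups. Aldoc was most like Csrp1 (r = 0.96), Cyp2j9 (r = 0.94) and C1qb (r = 0.94), and Gfap most like Sparc (r = 0.89), Csrp1 (r = 0.89) and Sema3d (r = 0.84). Glul had Ntrk2 and Chst2 among its 3, and Slc1a2 most like Lsamp (r = 0.97), Stim1 and Gpr101. Gja1 was most like Haus2 (r = 0.97), Slc6a11 (r = 0.93) and Penk, Aqp4 most like Ednrb (r = 0.93), Clic4 and Itpripl2, and Aldh1l1 most like Mmp14 (r = 0.94), Plat and Pcx. Slc1a3 was most like Ddb1 (r = 0.90), Kidins220 and Lars, S100b most like 2610301B20Rik (r = 0.88), Abhd3 and Nefl, and Sparcl1 most like Scg2 (r = 0.92), Itm2b and Hist1h2bc. Among the members themselves the highest correlations were those of Slc1a2 with Glul (r = 0.89), Aldoc with Glul (r = 0.87), Slc1a3 with Aldh1l1 (r = 0.85) and Slc1a2 with Gja1 (r = 0.85), and the lowest was that of Aldh1l1 with Gja1 (r = -0.39). The glutamate transporters Slc1a2 and Slc1a3 had r = 0.03.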

How the data were processed

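Total and polysomal RNA of control and SMA mouse brains was sequenced in 20 libraries with a stranded total RNA kit. The authors aligned the reads to GRCm38.p4 with TopHat2 2.0.14 and the Gencode M6 annotation, and the deposited FPKM values were computed with Cufflinks 2.2.1 at default settings. FPKM values of different libraries are relative to all mapped fragments, and a few abundant RNAs can shift them: they summed to between 790791 and 997685 in total and between 571462 and 657670 in polysomal libraries. Columns were tied to samples by the labels, and 0 columns were left over. Replicates within groups correlated at 0.844 to 0.941 over genes, and none were identical. Nothing in the labels says that replicates are separate mice, so p-values measure the spread between these samples.

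Values were tested as log2(FPKM + 0.1) with limma 3.58.1 (lmFit, eBayes with a trend) in R 4.3.3, in the 15247 genes whose mean reached 1 FPKM, of which 13101 are protein-coding. Fold changes on this scale understate those of weakly expressed genes. Each of 16 comparisons was fitted on its own groups, p-values were two-sided, and Benjamini-Hochberg adjustment ran over all tested genes. The study's own tests, CuffDiff and Xtail, need alignments or counts. The fit was tested on simulated data. The members and the 18 other lists were chosen with earlier results of these data known. Named were the members, up to 2 genes per list, comparison and direction with the smallest p among those called, the 3 genes most like each member and the most abundant gene of each marker list, of which the text gives a selection. Some genes of the lists are counted but not reported here by name. Lists are described by counts and medians and were not tested as sets. Transcript lengths came from Gencode M21 and were known for 99.44% of tested genes. Promoter windows are from RefSeq (GRCm38.p6), where 8 of 10 members matched.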

Additional observations from a re-analysis of the deposited data

Results flagged for a closer look

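None of the 10 astrocyte genes differed between the genotypes in its change with stage or in its polysomal share at an unadjusted p under 0.05. Among 268 such tests over the members and 57 other named genes of the lists, 27 had an unadjusted p under 0.05 with limma and 0 had an adjusted p under 0.05, and these differences between groups are given as values. Of all tested genes 10.1% and 13.7% were called for the stage change in total and polysomal RNA and 2.32% and 2.07% for the polysomal share at P5 and P7. The 57 genes were mostly picked for small p-values in comparisons on the same libraries, so the count says nothing about the lists. In polysomal RNA the change from P5 to P7 in SMA minus that in control was Ttr at 0.90, Zbtb20 at -0.83, Abcc9 at -0.53, Gjb6 at 0.76, Cp at -0.58, Dmd at -0.28, Chrdl1 at -0.54, Id3 at 0.41, Sparc at 0.48, Nfix at -0.53 and Ptprz1 at -0.32. In total RNA the same difference was H2-T23 at -1.25, Abcc9 at -0.58, Dmd at -0.62, Zbtb20 at -0.54, Tm4sf1 at 0.49, Ttr at 1.28, Lifr at -0.31, Ncan at -0.33, Rgs5 at -0.35, Slc4a4 at -0.37 and Chrdl1 at -0.33. The change of the polysomal minus total difference in SMA against control was Gjb6 at -0.53, Il6st at -0.72, Slc7a10 at 0.65 and Hes1 at -0.82 at P5, and H2-T23 at 0.67 at P7. All values are on the log2 scale. The nearest other list gene to the members by function, Gjb6, had its largest genotype change in late polysomal RNA, and in early RNA its change was smaller in the polysomal than in the total fraction.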

How the results depend on the processing

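The number of astrocyte genes called was recomputed with a pseudocount of 1, without the filter on low values, with the libraries scaled to equal medians, in 1 model over all 20 libraries, with the replicate number as a block, with a correction for transcript length and without each library in turn, and, for the genotype comparisons and chosen after seeing the data, with sex as a term. No called change turned its direction under any of these. For SMA against control in late total RNA the count was 3 under every one of these settings that kept all libraries. In early total RNA the count of 3 became 2 with equal medians and with sex as a term and 4 in 1 model, and in late polysomal RNA 3 became 2 in 1 model, with the length correction and with sex as a term. In early polysomal RNA, where 0 were called, it was 2 in 1 model over all libraries, 1 with the length correction and 1 with sex as a term. For P7 against P5 in control polysomal RNA, where 3 were called, it was 5 in 1 model and 5 with the length correction, and 4 with equal medians and without the filter. The count of 4 in SMA polysomal RNA became 6 in 1 model, that of 5 in SMA total RNA 6 in 1 model and 4 without the filter, and that of 3 in control total RNA 4 with the length correction. For polysomal against total RNA the count of 1 in early SMA became 2 with equal medians, 3 in 1 model and 2 with the length correction, and that of 3 in late SMA became 5 in 1 model. In early controls 5 became 7 with equal medians, where Aldh1l1 (0.50) and Glul (0.43) were gained, and 6 in 1 model and with the length correction, and in late controls 4 became 3 with equal medians, without the filter and with the length correction. The difference of the stage changes in polysomal RNA, with 0 called, had 1 with equal medians. The cause of these moves was not tested.

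Without single libraries the counts ran from 0 to 2 (early total), 1 to 2 (early polysomal), 3 to 5 (late total) and 1 to 4 (late polysomal) for SMA against control. For P7 against P5 they ran from 1 to 4 in control total, 2 to 4 in control polysomal, 2 to 6 in SMA total and 2 to 5 in SMA polysomal RNA. For polysomal against total RNA they ran from 1 to 5 in early controls, 2 to 4 in late controls, 0 to 3 in early SMA and 2 to 5 in late SMA. For the change of that difference they ran from 0 to 1 at P5 and 0 to 0 at P7, and for the difference of the stage changes from 0 to 1 in total and 0 to 2 in polysomal RNA. Where this left 1 library in a group, that library was assumed to vary like the other group.

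The labels give the groups the same replicate numbers. The correlation of deviations from the group means between same-numbered libraries was -0.039 to 0.109 for total and polysomal RNA. It was over 0.1 in 2 of 10 pairs. For control and SMA it was -0.090 to 0.033 and for the stages -0.040 to 0.036. In late SMA the same-numbered total and polysomal pairs were at 0.109, 0.070 and 0.109, and unlike numbers lay between -0.086 and -0.020. Same-numbered pairs were at -0.035 in early controls, at -0.039 in early SMA and between -0.015 and 0.014 in late controls. The numbers were not taken to pair the samples in the main fit. Pairing is not excluded, and sex matched between the fractions in all 10. With the replicate number as a block the count for SMA against control became 2 in early total RNA, where Glul was lost (0.46), and stayed at 3 in late polysomal RNA, where Sparcl1 was lost (0.24) and Slc1a2 gained (0.29). It became 4 in control total (Aldh1l1 gained, -0.36), 5 in control polysomal (Slc1a3 and Glul gained, -0.32 and 0.40), 4 in SMA total (Aldoc lost, 0.51) and 2 in SMA polysomal RNA (Gja1 and Aldoc lost, 0.30 and 0.51) for P7 against P5, and 2, 7, 3 and 9 for polysomal against total RNA in early controls, late controls, early SMA and late SMA. In early controls Slc1a3, Slc1a2, Aldoc and Sparcl1 were lost and Aqp4 gained, in late controls Slc1a3 was lost and Aqp4, Slc1a2, S100b and Glul gained, in early SMA Gja1 and Aldoc were gained, and in late SMA Gfap, Aqp4, Aldh1l1, Slc1a3, Slc1a2 and S100b were gained. FPKM without counts leaves the precision of single values unknown, and 2 or 3 replicates limit every test.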
